A study of Mus musculus with 4 samples.

Results

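Slc15a2 and 6 genes beside it on mouse chromosome 16 (Cd86, Ildr1, Eaf2, Iqcb1, Golgb1 and Hcls1) are described here, 7 of the 31053 genes listed in the files. Slc15a2 was taken because its counts were higher in the KO libraries than in the WT libraries. The other 6 were taken because they lie next to it. The KO/WT values of Slc15a2 are therefore a description, and nothing is drawn from them. The question was whether any difference is particular to Slc15a2, is shared along the chromosome, and is found in every cell lineage or only where the targeted gene was deleted.

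Cells came from the lungs of male C57BL/6 mice, 5 to 10 weeks old. The floxed stock is named B6.129S7(129S4)-Ift20tm1.1Gjp/J, with 129 strains as donors of the allele, and the Cre stock B6.Cg-Tg(Cd4-cre)1Cwi/BfluJ. Sequence differences between strains at the Slc15a2 locus were not analysed here. WT mice were Ift20 f/f and carried floxed Ift20 alleles without a Cre driver, and KO mice were Ift20 f/f CD4 cre. Both genotypes share the floxed allele, and the KO also carries the Cd4-cre transgene, which is active from the stage of thymic development at which T cells make both CD4 and CD8. Papain, a plant cysteine protease used as an inhaled allergen, was given into the nose at 25 µg on 3 days in a row and again on day 14, and lungs were taken on day 15. Controls were given buffered saline (DPBS) in its place. Leukocytes (live CD45.2+ cells) were sorted, and each genotype under each treatment gave 1 library of 10x Genomics 3′ v3 chemistry. The libraries are called DPBS WT, DPBS KO, Papain WT and, last, Papain KO, and 4 values in a row follow that order. The number of mice in a library is not given. With 1 library in each group there is no replicate check, so no test between groups was run. Genotype, Cre, the mouse or mice used and the library cannot be told apart within a treatment.

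Slc15a2 encodes PEPT2, a proton-coupled transporter that brings dipeptides, tripeptides and bacterial muramyl peptides into the cell, where NOD receptors can sense the latter. It is best known from the epithelia of the kidney and lung. Its neighbours have unrelated roles. Cd86 is a ligand for CD28 and CTLA4 on antigen-presenting cells. Ildr1 is an immunoglobulin-like receptor of junctions where 3 epithelial cells meet. Eaf2 is a partner of the ELL transcription elongation factors, known from germinal-center B cells and plasma cells. Iqcb1 (nephrocystin-5) is a protein of the ciliary base. Golgb1 (giantin) is a tether of Golgi membranes. Hcls1 (HS1) is an actin-binding substrate of SRC and SYK family kinases in blood cells.

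All positions are on GRCm38 with the GENCODE M21 annotation, in which the identifiers of 7 members carried the same symbols as in the files. The block spans 359 kb, from base 36603869 to 36963212 of chromosome 16. Slc15a2 (ENSMUSG00000022899) lies at chr16:36750177-36784962 on the minus strand. Toward the centromere lie Ildr1 (chr16:36693978-36726804, plus strand) and Cd86 (chr16:36603869-36666081, minus strand). On the other side lie Eaf2 (chr16:36792884-36875003, minus strand), Iqcb1 (chr16:36828385-36872721, plus strand), Golgb1 (chr16:36875140-36933085, plus strand) and Hcls1 (chr16:36934983-36963212, plus strand). All 44337 bases of Iqcb1 fall inside the annotated span of Eaf2 on the opposite strand. Whether their exons overlap was not examined. The targeted gene Ift20 is on chromosome 11.

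RefSeq (GRCm38.p6) lists a promoter for 5 of the 7 members. The 250 bases before the start are printed, 5′ to 3′ on the gene's own strand, for Slc15a2, for its neighbour Ildr1 and for Hcls1, the member with the most UMIs. They are shown because Slc15a2 and these neighbours differed in their KO/WT values. Capitals mark GGAAGT, the core bound by many ETS factors, and GGGCGG, the GC box, each searched on both strands.
Slc15a2 (chr16:36784963-36785212, minus strand): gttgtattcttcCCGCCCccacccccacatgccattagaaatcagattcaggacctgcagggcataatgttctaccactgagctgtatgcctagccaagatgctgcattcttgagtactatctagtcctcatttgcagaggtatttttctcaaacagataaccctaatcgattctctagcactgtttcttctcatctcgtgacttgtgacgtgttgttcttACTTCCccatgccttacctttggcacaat
Ildr1 (chr16:36693728-36693977, plus strand): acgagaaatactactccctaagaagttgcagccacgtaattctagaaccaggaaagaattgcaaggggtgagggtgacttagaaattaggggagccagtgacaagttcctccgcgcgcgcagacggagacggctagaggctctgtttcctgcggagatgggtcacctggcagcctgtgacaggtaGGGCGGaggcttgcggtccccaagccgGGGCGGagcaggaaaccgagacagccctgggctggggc
Hcls1 (chr16:36934733-36934982, plus strand): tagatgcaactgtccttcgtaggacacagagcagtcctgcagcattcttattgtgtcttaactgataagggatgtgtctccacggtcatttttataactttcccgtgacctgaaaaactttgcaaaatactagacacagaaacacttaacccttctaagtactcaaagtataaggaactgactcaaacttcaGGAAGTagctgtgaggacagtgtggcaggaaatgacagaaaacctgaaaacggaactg
The Slc15a2 window held 1 match to each motif, Hcls1 held GGAAGT only and Ildr1 held GGGCGG at 2 places. Over all 32851 RefSeq windows of this length, 19.7% held GGAAGT and 32.7% held GGGCGG. Slc15a2 and Hcls1 held 4 CpG dinucleotides each and Ildr1 held 14, against a median of 6. A match is a description of the letters and not a measured site.

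The values are counts of unique molecular identifiers (UMIs), each standing for 1 captured transcript end. The files held 28805 barcodes, of which 25892 were kept as cells, between 5430 and 7573 in a library, with a median of 5817 to 6680 UMIs in a cell. Levels are given as UMIs in 1000000 (CPM) of the cells summed, with 95% exact Poisson intervals, and KO/WT differences as log2 ratios with exact intervals from the split of UMIs between the libraries. These intervals cover counting error only. Each member had at least 382 UMIs over the 2 libraries of each treatment, so all 7 passed the minimum of 20 UMIs. Cells formed clusters that were named from marker genes and are called B-like, CD4 T-like and so on, which gave 11 classes with at least 50 cells in every library. Xist had too few UMIs to compare (under 20 in a pair), and the Y-linked genes Ddx3y, Eif2s3y, Kdm5d and Uty differed by -0.07 to 0.16 (log2 KO/WT) in the 2 treatments. 65 barcodes were found in more than 1 library.

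Ift20 checked the labels. Its log2 KO/WT in CD4 T-like cells was -1.13 (95% interval -1.57 to -0.72) with DPBS and -1.30 (-1.72 to -0.89) with papain. In CD8 T-like cells it was -1.73 (-2.15 to -1.33) and -1.33 (-1.71 to -0.95), and in the other T-like cells -1.10 (-1.54 to -0.67) and -1.64 (-2.19 to -1.12). In B-like cells it was -0.35 (-0.59 to -0.12) and 0.05 (-0.14 to 0.25), and in alveolar macrophage-like cells 0.06 (-0.04 to 0.17) and -0.14 (-0.29 to 0.00). The 3′ UMIs do not read the deleted exons themselves. Of the classes given, the lowest Ift20 values followed the labels and lay in the T-like classes. A smaller difference in the same direction was seen in B-like cells of DPBS.

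Slc15a2 was higher in the KO library in both treatments. DPBS WT stood at 6.54 CPM (5.94 to 7.18, 435 UMIs) and DPBS KO at 17.7 CPM (16.6 to 18.9, 920 UMIs). Papain WT stood at 2.09 CPM (1.75 to 2.47, 137 UMIs) and Papain KO at 25.3 CPM (23.9 to 26.8, 1255 UMIs). No 2 of these 4 intervals overlapped, and the pair of WT libraries themselves differed 3.13-fold. The log2 KO/WT was 1.44 (1.27 to 1.61) in DPBS, a 2.71-fold difference, and 3.60 (3.35 to 3.87) in papain, a 12.1-fold difference. In such sums over all cells, more cells of a type and more RNA in a cell cannot be told apart, so classes are given after them. The higher fold in papain went with a lower WT level as well as a higher KO level.

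Across all genes with at least 20 UMIs, 4.0% were higher in KO by 1.5-fold or more in DPBS and 4.88% were lower. In papain 4.64% were higher and 5.62% lower. In both treatments together 0.645% were higher and 0.709% lower. Slc15a2 was among the 90 of 13961 genes higher in both, and 67 genes had a higher log2 KO/WT in DPBS and 10 in papain. None of the 6 neighbours was past 1.5-fold in either treatment. With shares this low over all genes, none of 6 is near that share.

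**Figure D1:**
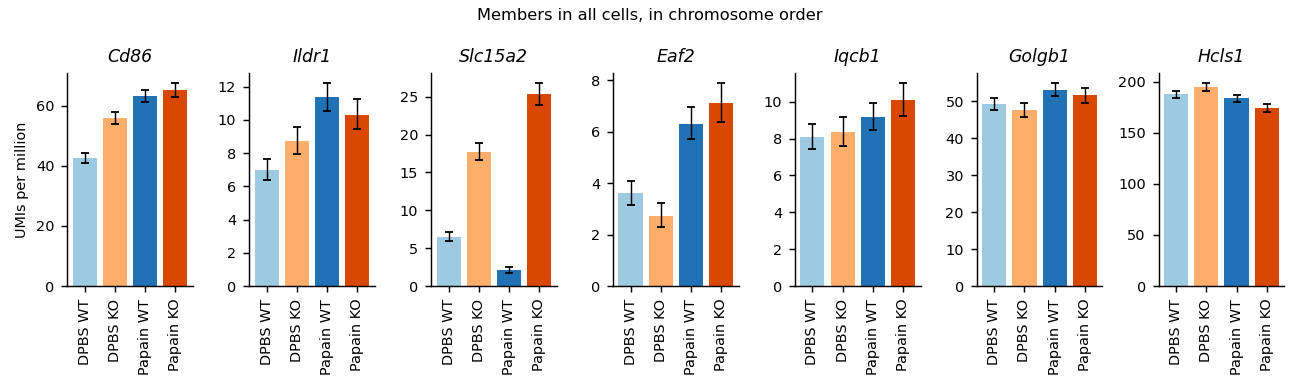
Level of each member in all cells of the 4 libraries, in UMIs in 1000000 on axes that start at 0, in chromosome order; bars are single libraries and lines are 95% Poisson intervals of the count. Slc15a2 ran from 2.09 in Papain WT to 25.3 in Papain KO, while Golgb1 stayed between 47.5 and 53.0.

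In the 11 classes compared, Slc15a2 was higher in both KO libraries than in both WT libraries. In B-like cells it was 12.5, 30.7, 2.92 and 37.7 CPM. In CD4 T-like cells the values were 5.92, 25.5, 3.66 and 27.3 CPM in the same order. In alveolar macrophage-like cells they were 2.90, 9.55, 1.33 and 9.26 CPM. CD8 T-like cells had 7.37, 22.1, 2.45 and 27.5 CPM and the other T-like cells 9.17, 26.9, 4.48 and 34.9 CPM. The KO levels of these 4 lymphocyte classes lay between 22.1 and 37.7 CPM. Of the myeloid classes, classical monocyte-like cells had 7.55, 19.9, 1.48 and 23.8 CPM and nonclassical monocyte-like cells 10.5, 15.5, 0.73 and 26.2 CPM. Interstitial macrophage-like cells had 18.2, 25.5, 2.97 and 21.7 CPM and neutrophil-like cells 12.9, 37.7, 0 and 76.1 CPM. In the small innate lymphoid classes, NK-like cells had 4, 13, 0 and 14 UMIs and ILC2-like cells 0, 3, 0 and 11 UMIs. Papain WT was lowest, or tied at 0, in 11 of 11 classes, and Papain KO was highest in 8. Smaller groups did not all show this. A cluster led by Il17a and Il17f had 20.5, 17.5, 14.2 and 12.7 CPM, from 4, 4, 7 and 7 UMIs. Its cells were split among the T-like classes by their Cd4, Cd8a and Cd8b1 UMIs. Dendritic cell-like cells were too few to be compared: their cluster 24 had 9, 16, 4 and 11 UMIs and their cluster 25 had 1, 4, 0 and 0 UMIs.

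In DPBS, 8 classes had at least 20 Slc15a2 UMIs, and their log2 KO/WT ran from 0.49 to 2.11 with a median of 1.47. The highest was in CD4 T-like cells (2.11, 1.38 to 2.89). Alveolar macrophage-like cells stood at 1.72 (1.34 to 2.11), CD8 T-like cells at 1.58 (1.04 to 2.14), classical monocyte-like cells at 1.40 (0.75 to 2.08) and B-like cells at 1.30 (0.97 to 1.63). The interval reached 0 in nonclassical monocyte-like cells (0.56, -0.26 to 1.41) and in interstitial macrophage-like cells (0.49, -0.48 to 1.51). In the last of these 1 cell held 7 of the 15 UMIs of DPBS WT, and the median UMIs of a cell were 11397 in DPBS WT and 3208 in DPBS KO, so this class was not of like depth.

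In papain, 8 classes had UMIs in both libraries and at least 20 in all, and their log2 KO/WT ran from 2.80 in alveolar macrophage-like cells (2.11 to 3.56) to 5.17 in nonclassical monocyte-like cells (3.25 to 8.25, from 2 UMIs in WT). CD4 T-like cells stood at 2.90 (2.08 to 3.83) and B-like cells at 3.69 (3.19 to 4.23). Papain thus gave a higher ratio than DPBS in each class that could be counted in both, and the same WT library is the base of all these ratios. Neutrophil-like cells had 0 UMIs in 347 Papain WT cells and 65 UMIs in 230 Papain KO cells. With 3 counts put in place of 0 in that WT class, this was 30.1-fold higher. Reckoned the same way, NK-like cells (0 and 14 UMIs) were 2.90-fold higher and ILC2-like cells (0 and 11 UMIs) 5.0-fold higher. These folds leave out the counting error of the KO UMIs, so they are not lower limits. A value above 0 in both treatments and in each of the 8 classes that had at least 20 UMIs in both was seen for 15 of 6355 genes (0.236%). Slc15a2 was 1 of them by the contrast that chose it, and Cd86, Golgb1 and Hcls1, the other members that could be counted there, were not.

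**Figure D2:**
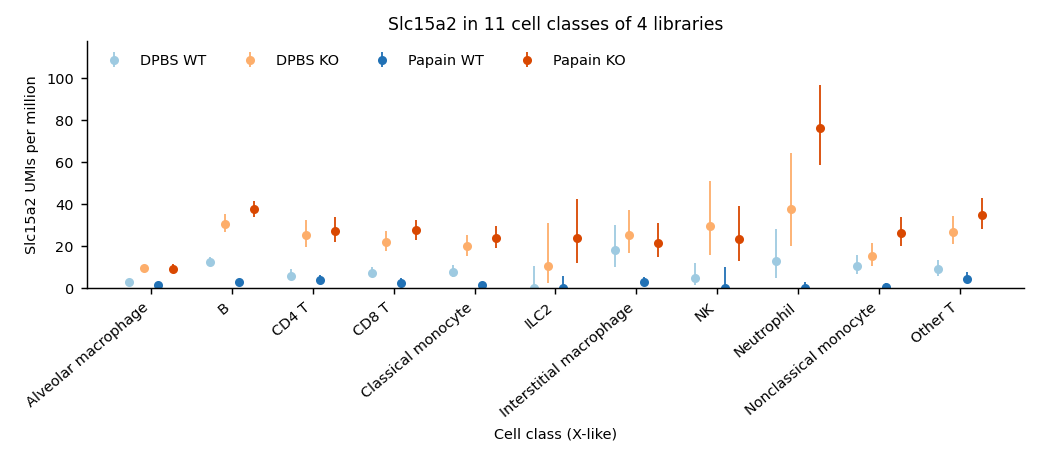
Slc15a2 in UMIs in 1000000 (linear axis from 0) in 11 cell classes; points are single libraries and lines are 95% Poisson intervals. Both KO points lie above both WT points in each class, and the Papain KO neutrophil-like point is the highest at 76.1.

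Within Papain KO the CPM level was highest in neutrophil-like cells (76.1 CPM, 58.8 to 97.0), apart from the next, B-like cells (37.7 CPM, 34.0 to 41.7). It was lowest in alveolar macrophage-like cells (9.26 CPM, 7.54 to 11.3). The classes between them had intervals that overlapped with those of their neighbours in rank. In B-like cells the clusters were unevenly shared between libraries, with 1320 of the DPBS WT cells in cluster 1 and 963 of the DPBS KO cells in cluster 0. Slc15a2 was 18.4, 35.8, 4.02 and 52.5 CPM in cluster 0 and 9.61, 26.1, 2.81 and 27.7 CPM in cluster 1, so the libraries kept their order within each.

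Counted in each cell, Slc15a2 was more even across the classes of Papain KO than as CPM. These classes held 13.8 to 36.6 UMIs in 100 cells, a 2.66-fold range, against 9.26 to 76.1 as CPM. Golgb1 ranged 7.75-fold in 100 cells and Hcls1 6.94-fold. In DPBS KO, Slc15a2 ranged 3.90-fold. The WT libraries held 0 to 21.1 Slc15a2 UMIs in 100 cells in DPBS and 0 to 3.18 in papain. An RNA that floats free in the suspension also gives an even low count. Chil3, a marker of alveolar macrophages and classical monocytes that lymphocytes lack, was used as a gauge. Over 7 lymphoid and neutrophil-like classes of Papain KO it stood at 22.3 to 33.8 UMIs in 100 cells, a 1.52-fold range. DPBS WT had 26.4 to 41.0, DPBS KO 33.3 to 43.2 and Papain WT 56.9 to 75.6. Whether neutrophil-like cells make Chil3 themselves was not examined. For this gauge Papain WT was the highest library. Its level in alveolar macrophage-like cells, which make it, was also highest there, at 11958, 13129, 31919 and 13786 CPM, so this gauge does not rank the libraries by free RNA. The variance over the mean of UMIs in a cell was 1.14 to 1.74 for Slc15a2 in B-like and T-like classes of the 4 libraries, and 0.951 to 1.25 for Chil3, so the ranges overlapped. A value of 1 is that of Poisson counts. In Papain KO, deeper cells held more Slc15a2. Alveolar macrophage-like cells there had 11.5 UMIs in 100 cells below the median depth and 26.0 above it, and B-like cells 17.7 and 26.1. For Chil3 in the same B-like cells these were 19.8 and 30.7. As CPM, Slc15a2 in those B-like cells was 43.9 below the median depth and 34.4 above it. In the other libraries deeper cells also held more Slc15a2 UMIs in both classes, except for B-like cells of Papain WT (1.91 and 1.43 in 100 cells). Of the markers of cells that are not immune, Cdh5, Col1a1 and Col3a1 had at most 39 UMIs in a library, and Sftpc, a gene of alveolar epithelium, had 114 to 153 UMIs. Sftpc was 2.30, 2.27, 1.75 and 2.30 CPM. Epcam was at 15.9 to 27.9 CPM and Pecam1 at 31.4 to 46.0 CPM, and both are also made by some leukocytes. The part that free RNA has in the Slc15a2 counts was not tested.

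**Figure D3:**
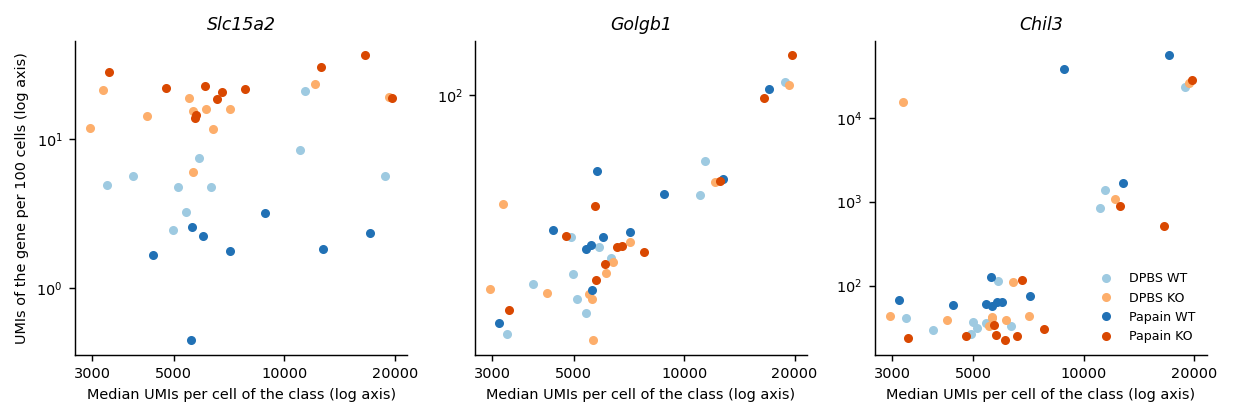
UMIs of Slc15a2, Golgb1 and Chil3 per 100 cells against the median UMIs of a cell in each class (both axes logarithmic); each point is 1 class in 1 library, and classes at 0 are left out. Golgb1 is higher where cells are deeper, Slc15a2 is set apart by library, and Chil3 lies between 22.3 and 75.6 in the lymphoid and neutrophil-like classes and far higher in macrophage-like classes.

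Cd86 was led by antigen-presenting classes. In all cells it was 42.7, 55.9, 63.3 and 65.2 CPM. The log2 KO/WT was 0.39 (0.31 to 0.46) with DPBS and 0.04 (-0.02 to 0.11) with papain. In B-like cells the direction differed between treatments, at 0.42 (0.30 to 0.55) and -0.19 (-0.29 to -0.09). Within B-like clusters Cd86 was 163, 168, 202 and 161 CPM in cluster 0 and 71.4, 84.0, 69.2 and 76.8 CPM in cluster 1, so in cluster 1 KO was above WT in both treatments. In cluster 13 it was 145, 204, 158 and 142 CPM. In classical monocyte-like cells the log2 KO/WT was 0.40 (0.20 to 0.61) and 0.47 (0.29 to 0.66), and in alveolar macrophage-like cells 0.59 (0.40 to 0.78) and 0.24 (-0.02 to 0.49). With DPBS 7 of 8 classes counted were above 0 (median 0.26) and 2 were past 1.5-fold, and with papain 8 of 9 were above 0 (median 0.47) and 3 were past it. The highest was in CD4 T-like cells with papain (1.22, 0.27 to 2.22), from 15 UMIs in WT and 29 in KO. Both KO libraries were above both WT libraries in 5 of 11 classes.

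Ildr1, the gene adjacent to Slc15a2 on the centromeric side, was mostly a B-like transcript, at 33.1, 47.5, 41.8 and 34.0 CPM there and at 0.22 to 0.83 CPM in alveolar macrophage-like cells. In all cells it was 6.98, 8.72, 11.3 and 10.3 CPM. The log2 KO/WT was 0.32 (0.13 to 0.51) with DPBS and -0.14 (-0.31 to 0.02) with papain. In B-like cells it was 0.52 (0.29 to 0.75) and -0.30 (-0.50 to -0.10). Within clusters, which the libraries held in different shares, Ildr1 was 54.9, 56.0, 63.0 and 44.9 CPM in cluster 0 and 18.7, 34.2, 32.3 and 24.8 CPM in cluster 1. In cluster 13, also B-like, it was 33.7, 30.2, 24.0 and 22.7 CPM. In 0 of 11 classes were both KO libraries above both WT libraries. Only 3 of these classes had at least 20 Ildr1 UMIs in DPBS and 6 in papain, so this count rests largely on few UMIs. The share of all genes with such an order was not computed.

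Eaf2 was sparse and stood out in few cells. In all cells it was 3.61, 2.73, 6.32 and 7.10 CPM, with a log2 KO/WT of -0.40 (-0.71 to -0.09) with DPBS and 0.17 (-0.04 to 0.38) with papain. Its level followed a small unnamed cluster led by Jchain and Igha, genes of antibody-secreting cells. That cluster had 6, 3, 24 and 11 cells and held 36.7%, 8.45%, 44.6% and 40.9% of the Eaf2 UMIs. Another unnamed cluster, led by genes of dividing cells, held 6.67%, 1.41%, 7.47% and 18.8% of the Eaf2 UMIs. In Papain KO 5 of its cells held 66 Eaf2 UMIs. Without all unnamed clusters together the DPBS value was 0.32 and the papain value -0.12, both of opposite sign to those in all cells. These values do not show the part of any single cluster. In B-like cells Eaf2 was 9.34, 14.0, 13.2 and 11.3 CPM, a log2 KO/WT of 0.59 (0.16 to 1.01) with DPBS and -0.22 (-0.58 to 0.13) with papain. Where B-like cells were chosen by marker transcripts in place of clusters, the DPBS value was -0.14. The direction of Eaf2 thus turned with the cells that were counted.

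Iqcb1 was highest in B-like cells, at 26.5, 28.8, 25.9 and 25.6 CPM. In all cells it was 8.10, 8.36, 9.18 and 10.1 CPM, and the log2 KO/WT was 0.04 (-0.14 to 0.23) with DPBS and 0.13 (-0.04 to 0.31) with papain. In the other T-like cells it was 10.6 and 5.30 CPM in DPBS and 9.33 and 4.41 CPM in papain (WT, KO). The log2 KO/WT there was -1.0 (-2.06 to -0.01) from 43 UMIs in DPBS and -1.08 from 36 UMIs in papain, while CD4 T-like cells stood at 0.19 (-0.66 to 1.02) and 0.15 (-0.69 to 0.99). In classical monocyte-like cells Iqcb1 was higher in KO with papain (1.18, 0.09 to 2.32, from 13 UMIs in WT and 19 in KO). Both KO libraries were above both WT libraries in 4 of 11 classes, of which 6 had at least 20 Iqcb1 UMIs in each treatment. The differences between classes were not tested.

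Golgb1 and Hcls1 had at least 20 UMIs in all 11 classes. Golgb1 was 49.2, 47.5, 53.0 and 51.6 CPM in all cells, with a log2 KO/WT of -0.05 (-0.13 to 0.03) with DPBS and -0.04 (-0.11 to 0.03) with papain. Over 11 classes its median was -0.07 in both treatments, and the widest value was -1.42 (-2.88 to -0.15) in ILC2-like cells of DPBS, from 23 UMIs in WT and 7 in KO. Neutrophil-like cells of DPBS were the other class past 1.5-fold (0.79, -0.17 to 1.76). Hcls1 was 187, 194, 183 and 174 CPM, with a log2 KO/WT of 0.05 (0.02 to 0.09) with DPBS and -0.08 (-0.12 to -0.04) with papain. It was past 1.5-fold in 0 of 11 classes in each treatment, with a median of -0.09 in DPBS and 0.03 in papain. Hcls1 had the most UMIs of the members (8627 to 12462 in a library), so these are the most precise values in the block.

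**Figure D4:**
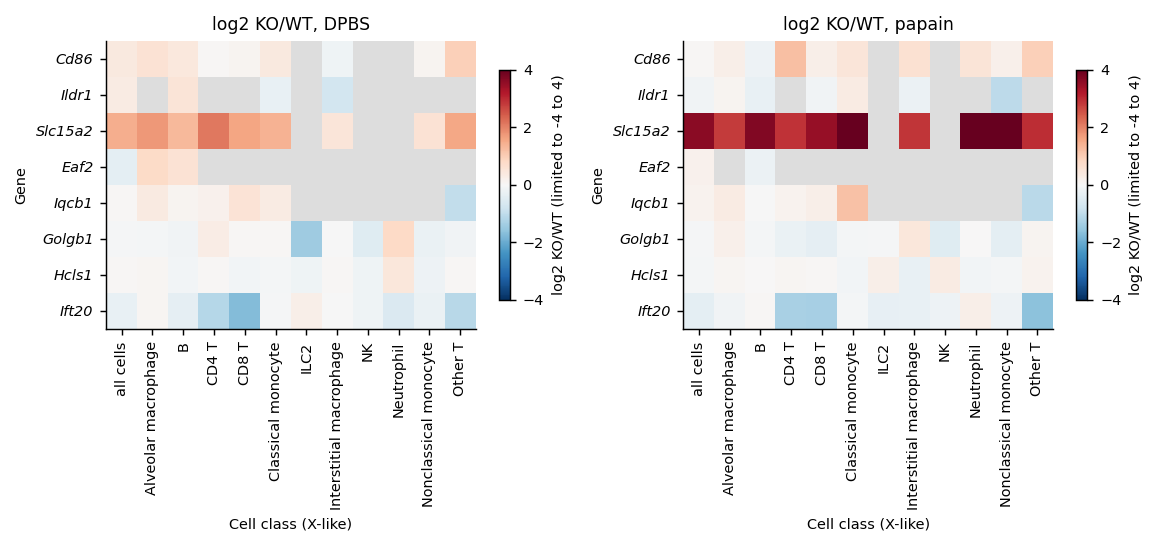
The log2 KO/WT of the 7 members, in chromosome order, and of Ift20 in all cells and 11 classes, for DPBS (left) and papain (right); red is higher in KO, blue is lower, the color is limited to -4 to 4, and grey marks fewer than 20 UMIs. Slc15a2 is red in each class that could be counted, with the neutrophil-like papain value, which has 0 UMIs in WT, drawn at the limit, while Ift20 is blue mainly in the 3 T-like classes (-1.10 to -1.73).

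Papain was also compared with DPBS within a genotype. Slc15a2 was lower after papain in WT (log2 -1.65, -1.94 to -1.37) and higher in KO (0.52, 0.39 to 0.64). No other member differed in direction between the genotypes in all cells. Eaf2 was higher after papain in both, by 0.81 (0.58 to 1.04) in WT and 1.38 (1.09 to 1.67) in KO. Cd86 was higher by 0.57 (0.50 to 0.64) and 0.22 (0.15 to 0.30), and Ildr1 by 0.70 (0.53 to 0.87) and 0.24 (0.05 to 0.42). Iqcb1, Golgb1 and Hcls1 lay between -0.16 and 0.27. With the classes weighted equally Ildr1 stood at 0.0087 in WT and -0.38 in KO and Cd86 at 0.025 and 0.098, and Eaf2 stood at 0.18 in WT and -0.088 in KO, so the papain values of these 3 genes turned on which cells were counted. These comparisons use the same 4 libraries as KO against WT and add no independent data.

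The files list 39 genes whose starts lie within 1 Mb of its start, and 26 of them had at least 20 UMIs in both comparisons. Of the 19 of these that are not members, 2 were past 1.5-fold in both treatments in 1 direction, and both were lower in KO, so 0 were past it higher. Stfa2, a stefin protease inhibitor 377 kb away, had 37, 4, 31 and 13 UMIs. 2010005H15Rik, 563 kb away, had 27, 12, 25 and 11 UMIs. The 19 had a median log2 KO/WT of -0.12 in DPBS (-2.85 to 1.15) and -0.16 in papain (-3.11 to 0.38), and single values past 1.5-fold were held by 6 and 4 of them. Over all genes with at least 20 UMIs, 4.0% were higher and 4.88% lower in DPBS, and 4.64% and 5.62% in papain. In both treatments 0.709% were lower. The shares among the 19 were thus larger than over all genes, and this difference was not tested. Among the genes with too few UMIs was Stfa3, a stefin 330 kb away, with 5, 10, 16 and 28 UMIs, higher in KO by 1.21 (log2) in papain and under the minimum in DPBS. Fbxo40, the gene beyond Hcls1, had 6 to 9 UMIs in a library and could not be counted.

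By distance, leaving out Slc15a2, the 9 genes within 0.5 Mb had a median log2 KO/WT of 0.04 in DPBS and -0.08 in papain. The 16 genes at 0.5 to 1 Mb had -0.10 and -0.09, the 21 at 1 to 2 Mb 0.09 and -0.12, the 31 at 2 to 5 Mb 0.03 and -0.06, the 48 at 5 to 10 Mb -0.02 and 0.01, and the 313 farther away -0.01 and -0.04. Over all other chromosomes the medians were 0.01 and -0.03. Of 438 chromosome 16 genes besides Slc15a2, 0 were past 1.5-fold higher in both treatments and 8 were past it lower (1.83%). On the other chromosomes 90 of 13512 genes were past it lower and 89 higher. Among the 8 were Rtp4 (-0.92 in DPBS and -0.66 in papain) and Mx1 (-0.67 and -0.99), both interferon-induced genes and both over 10 Mb away. With a minimum of 100 UMIs these were the 2 genes left of 367, and 0 lay within 10 Mb, against 22 of 11453 genes lower on the other chromosomes.

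**Figure D5:**
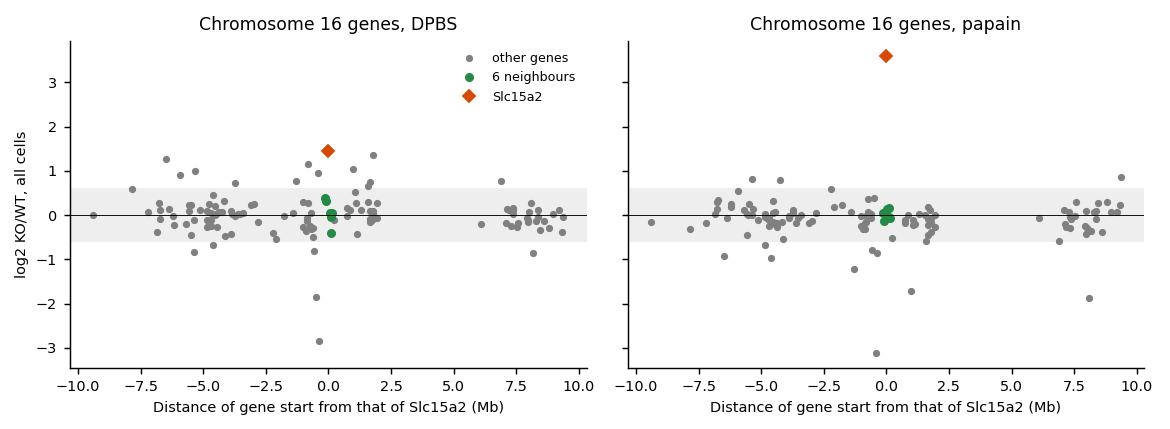
The log2 KO/WT in all cells of genes within 10 Mb of Slc15a2 against the distance between gene starts in Mb, in DPBS (left) and papain (right); the grey band marks 1.5-fold. Slc15a2 stands at 1.44 and 3.60, and the 6 neighbours, in green, lie between -0.40 and 0.39 in DPBS and between -0.14 and 0.17 in papain.

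None of the genes that share a function with a member was past 1.5-fold in both treatments in 1 direction. Over all genes 0.645% were higher in both and 0.709% lower, so a count of 0 in lists this short is near that share. Of 12 genes of peptide transport and muramyl peptide sensing, 9 could be counted in both treatments and 0 were past 1.5-fold in both. Slc15a3, a lysosomal peptide and histidine transporter, had 12309, 11544, 9922 and 6222 UMIs, a log2 KO/WT of 0.26 (0.23 to 0.30) with DPBS and -0.27 (-0.31 to -0.22) with papain. Nod2, a sensor of muramyl dipeptide, was at 0.61 (0.38 to 0.85) and -0.28 (-0.51 to -0.06), Slc46a2 at 0.06 (-0.26 to 0.37) and 1.12 (0.80 to 1.44), and Slc46a3 at -0.05 (-0.21 to 0.11) and 0.27 (0.10 to 0.43). The list had a median of 0.08 in DPBS and 0.01 in papain, against 0.01 and -0.03 for all genes. Slc15a1 (PEPT1), the intestinal relative, had 4 to 10 UMIs in a library.

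For Cd86, 8 genes of the CD28 family and its ligands were counted, with 0 past 1.5-fold in both treatments and medians of 0.02 and -0.45. Cd80, the other ligand of CD28, was at 0.76 (0.65 to 0.86) with DPBS and -0.45 (-0.56 to -0.34) with papain. The inhibitory receptors Pdcd1 and Ctla4 stood at 0.11 (-0.18 to 0.40) and -0.34 (-0.47 to -0.21) in DPBS and at -1.18 (-1.37 to -0.99) and -0.91 (-1.0 to -0.83) in papain. Icos was at 0.31 (0.22 to 0.41) and -0.45 (-0.52 to -0.38). In the 9 partners of Hcls1 no gene was past 1.5-fold in either treatment; the kinase Lck was at -0.52 (-0.57 to -0.47) with DPBS and 0.19 (0.14 to 0.24) with papain, and Syk at 0.31 (0.27 to 0.35) and -0.14 (-0.18 to -0.11). Of the 4 relatives of Eaf2, Ell3 alone was past the limit, in DPBS (-0.70, -1.45 to 0.02). Of 8 ciliary partners of Iqcb1, Nphp4 alone was, in papain (-0.59, -1.45 to 0.22), from 60 UMIs. Of 11 Golgi tethers none was, with -0.13 to 0.24 in DPBS and between -0.25 and 0.25 in papain. Of 3 relatives of Ildr1 that could be counted, Igsf5 was, in papain (0.89, 0.24 to 1.56).

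Among 11827 genes with at least 100 UMIs in both comparisons, Slc15a2 was second when genes were ranked by the smaller of their 2 KO/WT differences in 1 direction. Il13, the type 2 cytokine, was first and lower in KO, at -1.52 in DPBS and -2.32 in papain (110, 30, 737 and 111 UMIs). The next 9 were Dqx1 (1.11 and 1.34), Klk1 (-1.07 and -2.53), Nrn1 (-0.96 and -2.02), Corin (0.94 and 1.15), Siglech (-1.72 and -0.90), Asb2 (-0.89 and -1.24), Nectin2 (-0.88 and -1.66), Loxl2 (0.80 and 0.97) and Crmp1 (-0.79 and -0.78). None of these 10 lies on chromosome 16. Only Loxl2, an extracellular matrix crosslinker, had 20 UMIs in more than 1 class, with the same sign in both treatments in 3 of 5 classes. Slc15a2 had it in 8 of 8, but was chosen by these KO/WT values. Neither its rank nor that count is therefore a result.

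The genes whose levels were most like those of Slc15a2 were sought over 44 units (11 classes in 4 libraries) by Pearson's r of log2(CPM + 10), among 12976 other genes. They were Eps8l1 (r = 0.73), Gm17056 (0.58), Gm42726 (0.54), Mpv17l (0.50) and Tmem91 (0.48). Eps8l1, an actin regulator related to EPS8, was 4.59, 5.01, 2.60 and 8.64 CPM, a log2 KO/WT of 0.13 in DPBS and 1.73 in papain. Mpv17l is on chromosome 16, but its start is over 10 Mb from that of Slc15a2. The neighbours ranked far lower, at 0.20 for Eaf2, 0.14 for Cd86, 0.12 for Ildr1, 0.07 for Iqcb1, 0.06 for Hcls1 and -0.21 for Golgb1. Units of 1 library share depth and free RNA, and units of 1 class share cell type, so these values are descriptions.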

How the data were processed

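Counts of UMIs per gene and barcode were deposited by the authors for 4 libraries as 10x matrices. The labels name mm10 and Cell Ranger, and per the file headers the software version was 3.1.0. Cell calling, annotation and use of strand are not given in the sources used here. No column of per-sample values was left unmapped. The members, gene lists and comparisons were chosen with earlier results of these data known.

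Barcodes with over 200 genes and under 15% mitochondrial UMIs were kept. Scrublet (scanpy 1.11.5, Python 3.11.15) scored doublets, and the top scores were removed up to 0.8% per 1000 barcodes, since the caller's own threshold marked 2 of 5863 Papain KO barcodes. This removed 275 to 585 barcodes from a library. Cells were integrated and clustered in Seurat 5.3.0 (R 4.3.3; 2000 variable genes without members, 30 dimensions, resolution 0.8). Clusters were named from preset markers by a scoring rule set after the clusters were seen, and unclear ones stayed unnamed. T-like cells were split by Cd4, Cd8a and Cd8b1 UMIs, and cells with neither or both were called other T-like.

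UMIs were summed over the cells of a class and divided by their total. Intervals are 95% Poisson (levels) and Clopper-Pearson (ratios), computed in scipy 1.17.1. The ratio intervals were tested on simulated Poisson counts, the case they assume. That test does not show their coverage where counts vary more than Poisson counts. A count of 0 was set to 3 counts to give a fold, with the KO count taken as it stood. The limits were 1.5-fold and 20 UMIs. Total UMIs were 53854420 to 75675956 in a library. Named genes were the members, the label checks, genes within 1 Mb past the limit in both treatments, up to 4 genes of a list by mean difference, the 10 largest shared differences and the 5 genes most like Slc15a2. Fbxo40, Slc15a1, Rtp4, Mx1 and Stfa3 were named after their values were seen. TMM scaling used edgeR 4.0.16.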

Additional observations from a re-analysis of the deposited data

Results flagged for a closer look

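Slc15a2 differed between papain and DPBS in opposite directions in the 2 genotypes. In all cells the log2 papain/DPBS was -1.65 in WT and 0.52 in KO, in B-like cells -2.10 and 0.29, and in nonclassical monocyte-like cells -3.84 and 0.76. These cases, and those of Ildr1 and Cd86 below, were listed because both counting intervals excluded 0, in opposite directions. That property is therefore not a result. In 3 of 11 classes DPBS KO was above Papain KO. With 1 library in each group the difference between the genotypes was not tested, and Papain WT is the library that is lowest in 11 of 11 classes.

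Ildr1 and Cd86 showed the opposite arrangement in B-like cells. Ildr1 was at 0.34 in WT and -0.48 in KO, and Cd86 at 0.41 in WT and -0.20 in KO. The difference was not tested here either. The share of B-like cells held by each cluster differed between the libraries. Within cluster 0 both genes were higher after papain in WT (Ildr1 54.9 to 63.0 CPM, Cd86 163 to 202 CPM) and lower in KO (56.0 to 44.9 CPM and 168 to 161 CPM). Within cluster 1 Ildr1 kept these directions (18.7 to 32.3 CPM and 34.2 to 24.8 CPM), while Cd86 was lower in both genotypes (71.4 to 69.2 CPM and 84.0 to 76.8 CPM). Within cluster 13 Ildr1 was lower after papain in both genotypes (33.7 to 24.0 CPM in WT and 30.2 to 22.7 CPM in KO). Cd86 there was higher in WT (145 to 158 CPM) and lower in KO (204 to 142 CPM).

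The cells in unnamed clusters, which enter no class, held more Slc15a2 in KO when summed, at 6.86, 20.7, 1.78 and 23.8 CPM, but not in each cluster. In cluster 17, led by Cd209a and Mgl2, the log2 KO/WT was 2.80 in DPBS and 3.80 in papain, from 6, 33, 6 and 49 UMIs in the 4 libraries. In cluster 20, led by S100a8 and S100a9, it was 3.68 and 2.93, and in cluster 9, led by Ccl5, 1.17 and 3.02. In cluster 11, led by Tnfrsf4 and Foxp3, it was 4.26 in papain, while DPBS WT had 12.3 CPM and DPBS KO 10.5 CPM, and cluster 26, led by Jchain and Igha, had 6 UMIs in DPBS WT and 0 in DPBS KO. In cluster 19, led by genes of dividing cells, it was 5.21 in papain from 26 UMIs in KO and 1 in WT.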

How the results depend on the processing

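With 1 library in each group no replicate could be left out. No paired analysis was possible because each group holds 1 library and the results come from no test. Over 8 other settings the log2 KO/WT of Slc15a2 in all cells ran from 1.41 to 1.47 in DPBS and from 3.57 to 4.05 in papain, the last with the classes weighted equally. The 30 recomputed class values of Slc15a2 were all above 0 (0.38 to 5.24), and 29 were past 1.5-fold. None of the 96 recomputed all-cell values of the 6 neighbours was past 1.5-fold. These values are the same 6 genes in both treatments under 8 settings of the same counts. Few genes of any kind were past it, by the shares given below, so none of 6 is near the share over all genes.

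Alternatives chosen after seeing the data were the equal weighting of classes and leaving out unnamed clusters, and, for papain against DPBS, all settings. With equal weighting Cd86 had a log2 KO/WT of 0.18 in DPBS and 0.26 in papain, Eaf2 of 0.38 in DPBS and Hcls1 of -0.0090 in papain. Eaf2 in DPBS was 0.32 by the mean of each cell's CPM and 0.32 without unnamed clusters, and -0.12 in papain without them. The papain/DPBS value of Eaf2 in KO turned to -0.088 with equal weighting. Eaf2 in B-like cells of DPBS turned to -0.14 when cells were chosen by marker transcripts.

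TMM scaling, all deposited barcodes, doublets kept, shared barcodes left out, or the cell with the most UMIs left out moved no all-cell KO/WT value past its counting interval. The share of genes past 1.5-fold in either direction was 8.88% in DPBS and 10.3% in papain. With a minimum of 100 UMIs it was 4.06% and 4.57%, and with a limit of 2-fold 2.80% and 3.98%. Chosen by marker transcripts, alveolar macrophage-like cells had a Slc15a2 value of 1.97 in papain, against 2.80. Depth limits Eaf2, Ildr1 and Iqcb1 most, which had under 20 UMIs in many classes.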
